A study of Mus musculus with 12 samples.

Results

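The 7 genes described here belong to the sterol branch of macrophage metabolism. *Srebf2* encodes the transcription factor SREBP2 and *Insig1* its brake in the endoplasmic reticulum. *Hmgcs1*, *Idi1*, *Sqle*, *Lss* and *Cyp51* encode enzymes of cholesterol synthesis. They were chosen by name out of the 32301 genes or transcripts on the array, with earlier results of these data known. They were measured by 14 probes matched through the accession of the array design. The group is called cholesterol synthesis and uptake, but none of the 7 is an uptake receptor, so that genes of uptake and transport are given from a wider list. All 7 genes were well above background on all 12 arrays.

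The array signal was measured in bone marrow-derived macrophages (BMDMs) of 8-week-old C57BL/6 mice, grown from marrow cells with M-CSF for 7 days. WT mice were compared with KpCKO mice (Keap1 flox/flox::LysM-Cre), which lack *Keap1* in myeloid cells. The flox and Cre alleles were present in KpCKO alone, so that effects of Cre or of its insertion at the *LysM* locus cannot be told apart from loss of *Keap1*. BMDMs of each genotype received no stimulus (Con), LPS and IFNγ for 6 h (M1) or IL-4 for 6 h (M2), which gave 6 groups of 2 arrays. Culture 1 held 1 male mouse of each genotype and culture 2 held 1 female mouse of each, so that sex and culture cannot be told apart. Each of 3 slides carried the 4 arrays of 1 stimulus, and a stimulus therefore cannot be told apart from its slide, whereas both genotypes of a state lay on the same slide.

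A level is given throughout as the log2 array signal relative to the 75th percentile of the array, so that a difference of 1 is a 2-fold change. That percentile stood at a signal of 757 and 548 for WT M1 and between 787 and 1166 for the other 10 arrays. *Keap1* was lower in KpCKO by 1.46 on the log2 scale in Con (limma, adjusted p = 0.0336), with adjusted p = 0.00769 in M1 and 0.0161 in M2. Of 9 macrophage markers 8 were measured, and all 8 were well above background on both arrays of every group. Their summed log2 signal lay between 9.06 and 10.0 in WT and between 8.67 and 9.37 in KpCKO, and in M1 it was at least 9.71 in WT. By limma's test 2 of the 8 markers were lower in KpCKO in Con, 5 in M1 and 2 in M2, and none was higher. *Elane* and *Ms4a1*, markers of neutrophil and B cell lineages, were not well above background on both arrays of any group. Other markers of such cells were. In WT Con and KpCKO Con these were 7 and 7 of 8 neutrophil and 4 and 5 of 6 lymphocyte markers. They also were 3 and 4 of 5 dendritic cell markers, and 5 and 5 of 5 stromal and erythroid markers. By limma's test 1 of 7 neutrophil markers was higher in KpCKO in M1 and 1 in M2 (*Mmp8*, 2.50), where 7.43% and 1.28% of all genes were, and 0 were lower. Of 5 dendritic cell markers 1 was lower in KpCKO in M1, where 8.58% of all genes were, and 0 were higher. The share of other cells was not tested. The part of the lower macrophage marker signal in the differences below was not tested. In bulk samples, fewer cells of a type and less RNA per cell cannot be told apart.

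Cholesterol is made from acetyl-CoA through mevalonate, isoprenoids, squalene and lanosterol. When sterols in the endoplasmic reticulum are low, the escort protein Scap carries SREBP2 to the Golgi, where it is cut and released to the nucleus to raise transcription of the synthesis enzymes, of *Insig1* and of *Srebf2* itself. When sterols are high, Insig proteins hold Scap back, and oxysterols such as 25-hydroxycholesterol, the product of Ch25h, have the same effect. In macrophages the pathway is known to respond to inflammatory stimuli.

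The promoters are shown because these enzymes are classical targets of SREBP2, which binds sterol regulatory elements next to the CCAAT box of NF-Y. Promoter windows of 6 of the 7 genes, the 250 bases before the annotated start, were taken from RefSeq (GRCm38.p6), and no window was used for *Sqle*. They were searched on both strands for the core of the sterol regulatory element (TCACNCCAC), the NF-Y box (CCAAT) and 2 forms of the element bound by Nrf2 (TGACNNNGC and TGAGNNNGC). CCAAT was found in 6 of 6 windows, against 33.8% of 32851 windows of the same length. TCACNCCAC was found in 1 of 6, that of *Hmgcs1*, against 1.05% of all windows. TGAGNNNGC was found in 2 of 6, those of *Idi1* and *Insig1*, against 14.4%, and TGACNNNGC in 0 of 6, against 10.2%. No matches overlapped each other, and a match to these letters is not a bound site. The window of *Hmgcs1*, read 5′ to 3′ along the gene, is printed whole because it alone held a match to TCACNCCAC. Other forms of the sterol element were not searched for. The matches are in capitals (TCACCCCAC from −137 to −129, and 3 CCAAT boxes, each as ATTGG on the opposite strand).
Hmgcs1, chr13:119690101-119690350, plus strand: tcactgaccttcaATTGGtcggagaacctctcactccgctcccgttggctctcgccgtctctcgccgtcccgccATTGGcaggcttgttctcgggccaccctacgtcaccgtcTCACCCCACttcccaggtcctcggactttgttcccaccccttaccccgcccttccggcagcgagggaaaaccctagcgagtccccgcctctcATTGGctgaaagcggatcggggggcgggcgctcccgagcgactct
For the other 5 genes a stretch of 60 bases with the CCAAT box in capitals is shown to compare its position. The stretch of *Insig1* also has the TGAGNNNGC match in capitals, on the opposite strand, and that of *Idi1* holds 2 CCAAT boxes. The *Idi1* match to TGAGNNNGC lies farther upstream, from −245 to −237, and is not in its stretch.
Srebf2, chr15:82147106-82147165, plus strand: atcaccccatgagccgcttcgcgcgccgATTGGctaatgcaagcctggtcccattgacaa
Insig1, chr5:28071168-28071227, plus strand: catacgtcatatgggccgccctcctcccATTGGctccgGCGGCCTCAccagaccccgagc
Idi1, chr13:8885546-8885605, plus strand: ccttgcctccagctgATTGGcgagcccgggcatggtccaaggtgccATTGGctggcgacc
Lss, chr10:76531515-76531574, plus strand: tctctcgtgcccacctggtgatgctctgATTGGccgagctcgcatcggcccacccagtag
Cyp51, chr5:4104698-4104757, minus strand: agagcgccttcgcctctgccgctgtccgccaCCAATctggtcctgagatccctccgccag
The box nearest to the start lay from −29 to −25 in *Cyp51*, from −14 to −10 in *Idi1*, from −62 to −58 in *Lss*, from −135 to −131 in *Srebf2* and from −216 to −212 in *Insig1*.

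*Srebf2* rose with M1 stimulation in both genotypes, and its difference between the genotypes did not pass the test in any state, although in Con it lay near the threshold. In Con its level was −0.91 and −0.27 in WT (cultures 1 and 2) and −0.0020 and 0.31 in KpCKO. In M1 it was 0.69 and 1.39 in WT and 1.12 and 1.81 in KpCKO. In M2 it was −0.19 and 0.71 in WT and 0.36 and 0.94 in KpCKO. KpCKO was above WT in each culture, while the groups overlapped in M1 and in M2 because culture 2 was above culture 1 in all 6 groups. From the highest group to the lowest, the order was KpCKO M1, WT M1, KpCKO M2, WT M2, KpCKO Con and WT Con, and only WT Con did not overlap the group next to it. From Con to M1 the rise was 1.63 ± 0.14 in WT (SE, 3.09-fold, adjusted p = 8.65e-05) and 1.31 ± 0.14 in KpCKO (2.48-fold, adjusted p = 0.000365). From Con to M2 it was 0.85 ± 0.14 in WT (adjusted p = 0.0103), and 0.49 ± 0.14 in KpCKO did not pass the test (adjusted p = 0.0750). The difference between the genotypes did not pass in Con (0.74 ± 0.14, adjusted p = 0.0519), M1 (0.42 ± 0.14, adjusted p = 0.0843) or M2 (0.39 ± 0.14, adjusted p = 0.279). That in Con passed after quantile normalization (adjusted p = 0.0388), with the test limited to genes detected on each of the 12 arrays (0.0300) and with trended and robust variances (0.0235). By its other probe the rise to M1 was smaller, 0.73 in WT (adjusted p = 0.00945) and 0.92 in KpCKO (adjusted p = 0.00455), and the rise to M2 in WT did not pass (0.41, adjusted p = 0.151). Unless said otherwise, p-values are from limma's test across all genes, two-sided and adjusted by the Benjamini-Hochberg method. The threshold was 0.05, with n = 2 arrays a group. P-values of other probes are from the same model fitted to single probes and adjusted across all probes kept. P-values of an alternative are from its own fit.

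*Insig1*, whose product retains the SREBP escort Scap and which is itself a target of SREBP2, was higher in M1 than in Con in both genotypes and higher in KpCKO than in WT in Con and M1. Its level was −1.80 and −1.72 in WT Con and −0.79 and −1.10 in KpCKO Con. After M1 stimulation it was −0.53 and −0.54 in WT and 0.21 and 0.15 in KpCKO. After M2 stimulation it was −1.28 and −1.01 in WT and −0.59 and −0.73 in KpCKO. Both KpCKO arrays were above both WT arrays in each stimulus state. In the order of the groups KpCKO M1 was highest, followed by WT M1, KpCKO M2, KpCKO Con, WT M2 and WT Con, with KpCKO Con and WT M2 as the only neighbours that overlapped. The rise to M1 was 1.23 ± 0.14 in WT (2.34-fold, adjusted p = 0.000333) and 1.12 ± 0.14 in KpCKO (2.18-fold, adjusted p = 0.000752), and the 2 rises differed by −0.10 with a 95% confidence interval from −0.59 to 0.38. The genotypes differed by 0.82 ± 0.14 in Con (1.76-fold, adjusted p = 0.0413) and by 0.71 ± 0.14 in M1 (1.64-fold, adjusted p = 0.0231), while 0.49 ± 0.14 in M2 did not pass (adjusted p = 0.192). Neither call held when any 1 of the 4 arrays compared was left out, with adjusted p between 0.0708 and 0.276 in Con and between 0.0576 and 0.112 in M1.

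*Hmgcs1*, which encodes the cytosolic HMG-CoA synthase at the entry to the mevalonate pathway, was the only one of the 7 genes whose difference between the genotypes passed the test in all 3 states. Its level in Con was 3.46 and 3.49 in WT and 4.92 and 4.76 in KpCKO. In M1 it was 3.71 and 3.64 in WT and 5.55 and 5.99 in KpCKO. In M2 it was 3.70 and 4.17 in WT and 4.90 and 5.06 in KpCKO. The 6 KpCKO arrays were all above the 6 WT arrays, whatever the stimulus. The order was KpCKO M1, KpCKO M2, KpCKO Con, WT M2, WT M1 and WT Con, in which KpCKO M2 overlapped KpCKO Con, and WT M2 overlapped WT M1. The difference between the genotypes was 1.37 ± 0.18 in Con (2.58-fold, adjusted p = 0.0147), 2.10 ± 0.18 in M1 (4.28-fold, adjusted p = 0.00151) and 1.05 ± 0.18 in M2 (2.07-fold, adjusted p = 0.0405). In M1 the call held without each of the 4 arrays. In Con it was lost without WT Con of culture 1 (adjusted p = 0.108), WT Con of culture 2 (0.122) or KpCKO Con of culture 1 (0.118), and in M2 without any 1 of the 4 arrays (adjusted p from 0.0913 to 0.257). M1 stimulation raised *Hmgcs1* by 0.93 ± 0.18 in KpCKO (1.90-fold, adjusted p = 0.00467), whereas in WT the difference was 0.20 ± 0.18 (adjusted p = 0.362). After quantile normalization the values were 0.41 in KpCKO, which no longer passed (adjusted p = 0.0872), and −0.29 in WT, and with only the groups compared the call in KpCKO was lost too (adjusted p = 0.0545).

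*Idi1*, the isopentenyl diphosphate isomerase that makes the building blocks of squalene, showed the same order at the top. Its level was 1.39 and 2.01 in WT Con and 2.51 and 2.73 in KpCKO Con. In M1 it was 2.01 and 2.64 in WT and 3.66 and 4.47 in KpCKO. With IL-4 it was 1.70 and 2.95 in WT and 2.34 and 3.19 in KpCKO. The KpCKO M1 arrays were above the other 10, and every other pair of neighbours in the order KpCKO M2, KpCKO Con, WT M1, WT M2 and WT Con overlapped. KpCKO exceeded WT in M1 by 1.74 ± 0.22 (3.33-fold, adjusted p = 0.00552), and the call held without each of the 4 arrays. In Con the difference of 0.92 ± 0.22 did not pass (adjusted p = 0.101). The rise to M1 was 1.45 ± 0.22 in KpCKO (2.72-fold, adjusted p = 0.00155) and 0.63 ± 0.22 in WT (1.55-fold, adjusted p = 0.0393). The call in WT was lost without any 1 of its 4 arrays (adjusted p from 0.0920 to 0.165) and after quantile normalization (0.39, adjusted p = 0.159).

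*Sqle* and *Lss* encode successive enzymes that turn squalene into lanosterol, the first sterol of the pathway: squalene epoxidase and lanosterol synthase. Both had their lowest mean in WT M1 and their highest in KpCKO M1. The level of *Sqle* was 1.50 and 1.80 in WT Con, 2.61 and 2.32 in KpCKO Con, 1.01 and 1.11 in WT M1 and 3.06 and 3.48 in KpCKO M1. In M2 it was 2.12 and 2.93 in WT and 2.72 and 3.09 in KpCKO. Both WT M1 arrays were below both WT Con arrays, and both KpCKO M1 arrays above both KpCKO Con arrays. In M1 *Sqle* was higher in KpCKO than in WT by 2.21 ± 0.23 (4.61-fold, adjusted p = 0.00303), and the call held without each of the 4 arrays. In Con the difference was 0.82 ± 0.23 (adjusted p = 0.163) and in M2 0.38 ± 0.23 (adjusted p = 0.537). *Sqle* rose by 0.81 ± 0.23 with M1 stimulation in KpCKO (adjusted p = 0.0245), a call that was lost without KpCKO Con of culture 2 (adjusted p = 0.153), KpCKO M1 of culture 1 (0.0628) or KpCKO M1 of culture 2 (0.121), after quantile normalization (0.0772) and with only the groups compared (0.0828). In WT the change of −0.58 ± 0.23 did not pass (adjusted p = 0.0614). M2 stimulation raised it by 0.88 ± 0.23 in WT (adjusted p = 0.0446), which was lost without any 1 of the 4 arrays (adjusted p from 0.0506 to 0.240).

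The level of *Lss* was −0.64 and −0.41 in WT Con, 0.068 and 0.024 in KpCKO Con, −0.988 and −1.003 in WT M1 and 0.64 and 1.39 in KpCKO M1. In the M2 groups it was −0.24 and 0.31 in WT and −0.0014 and 0.57 in KpCKO. KpCKO M1 and WT M1 were thus the highest and the lowest group, and neither overlapped its neighbour. The difference between them was 2.01 ± 0.22 (4.03-fold, adjusted p = 0.00330), and it passed without each of the 4 arrays. *Lss* rose by 0.97 ± 0.22 from Con to M1 in KpCKO (adjusted p = 0.00892), a call lost without KpCKO Con of culture 2 (adjusted p = 0.0686) or KpCKO M1 of culture 2 (0.0637) and with only the groups compared (0.0697). In WT the change was −0.47 ± 0.22 (adjusted p = 0.0953). In the order of the groups *Lss* followed KpCKO M1, KpCKO M2, KpCKO Con, WT M2, WT Con and WT M1, with KpCKO M2, KpCKO Con and WT M2 overlapping in turn. For *Sqle* the order was KpCKO M1, KpCKO M2, WT M2, KpCKO Con, WT Con and WT M1, in which the top 4 groups overlapped in turn.

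*Cyp51*, which encodes the lanosterol demethylase, rose with M1 in both genotypes and was higher again in KpCKO. Its level was −0.35 and 0.14 in WT Con and 0.95 and 0.84 in KpCKO Con. In M1 it was 0.71 and 1.15 in WT and 2.12 and 2.58 in KpCKO. In the M2 groups it was 0.38 and 1.39 in WT and 1.01 and 1.61 in KpCKO. KpCKO M1 stood above and WT Con below the rest, and KpCKO M2, WT M1, KpCKO Con and WT M2 overlapped in turn. The rise to M1 was 1.03 ± 0.23 in WT (2.04-fold, adjusted p = 0.00675) and 1.46 ± 0.23 in KpCKO (2.75-fold, adjusted p = 0.00192). Of its 2 other probes, 1 did not pass in WT (0.46, adjusted p = 0.115) and 1 did (1.09, adjusted p = 0.00653). KpCKO exceeded WT by 1.42 ± 0.23 in M1 (2.68-fold, adjusted p = 0.0121). That call was lost without WT M1 of culture 2 (adjusted p = 0.0644) or KpCKO M1 of culture 1 (0.0722). In Con the difference of 0.999 ± 0.23 did not pass (adjusted p = 0.0937).

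**Figure D1:**
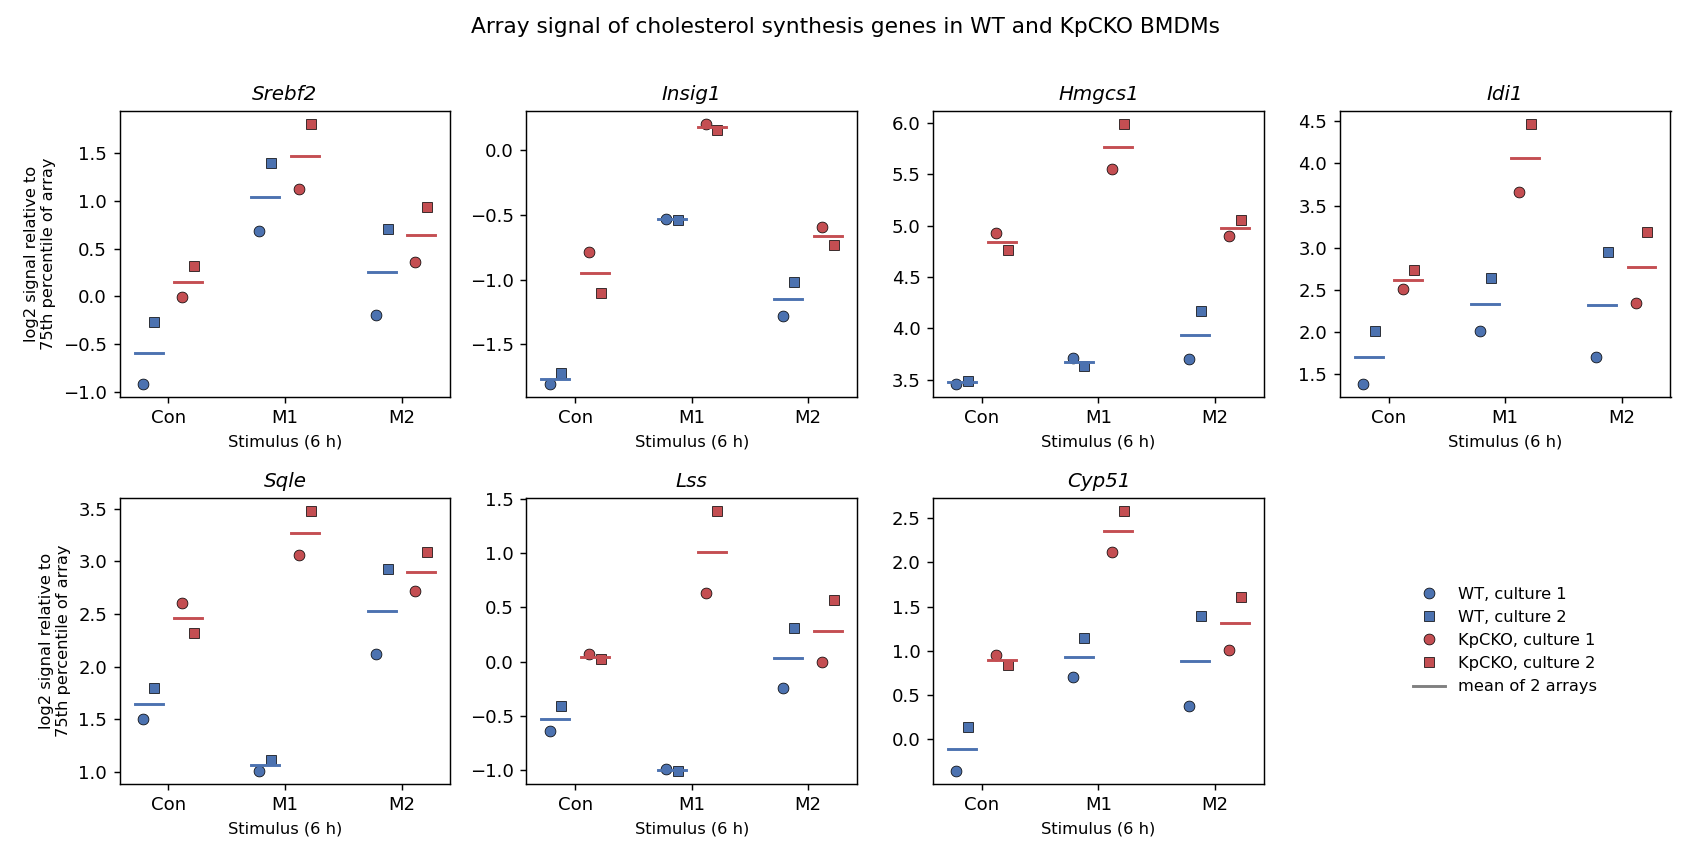
Log2 array signal relative to the 75th percentile of the array (vertical axis, a scale of its own in each panel) of the 7 genes in Con, M1 and M2 (horizontal axis), for WT (blue) and KpCKO (red); circles are culture 1, squares culture 2 and lines the mean of 2 arrays. KpCKO M1 had the highest mean for 7 of 7 genes, and WT M1 the lowest for *Sqle* and *Lss*.

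By the median and the count of calls, the 7 genes as a group differed most between the genotypes after M1 stimulation. *Srebf2* and *Insig1* differed more in Con (0.74 and 0.82) than in M1 (0.42 and 0.71). The change of the genotype difference from Con to M1 passed limma's test for 0 of 7 genes, and for 0.0716% of all genes tested. After M1 stimulation 6 of the 7 genes were higher in KpCKO and *Srebf2* did not pass, where 7.43% of 22354 genes tested were higher. The median difference of the 7 genes was 1.74, against −0.087 for all genes. In Con, *Hmgcs1* and *Insig1* were higher (2 of 7), where 1.39% of genes were, and the median was 0.82, against 0.0016 for all genes. In M2, *Hmgcs1* alone was higher (1 of 7), where 1.28% of genes were, and the median was 0.43, against 0.019. KpCKO was above WT in both cultures for 7 of 7 genes in Con, in M1 and in M2, as were 32.4%, 29.5% and 35.9% of all genes. At an unadjusted p under 0.05 the counts were 7 in Con, 7 in M1 and 3 in M2, where 14.1%, 34.1% and 14.3% of all genes were under it in either direction. The calls between the genotypes rested on the spread shared by all 12 arrays. With only the 2 groups compared in the model, 0 of the 7 genes passed in Con, M1 or M2, nor did any other gene. Without culture as a block, *Idi1* (adjusted p = 0.0849) and *Cyp51* (adjusted p = 0.0679) no longer passed in M1.

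**Figure D2:**
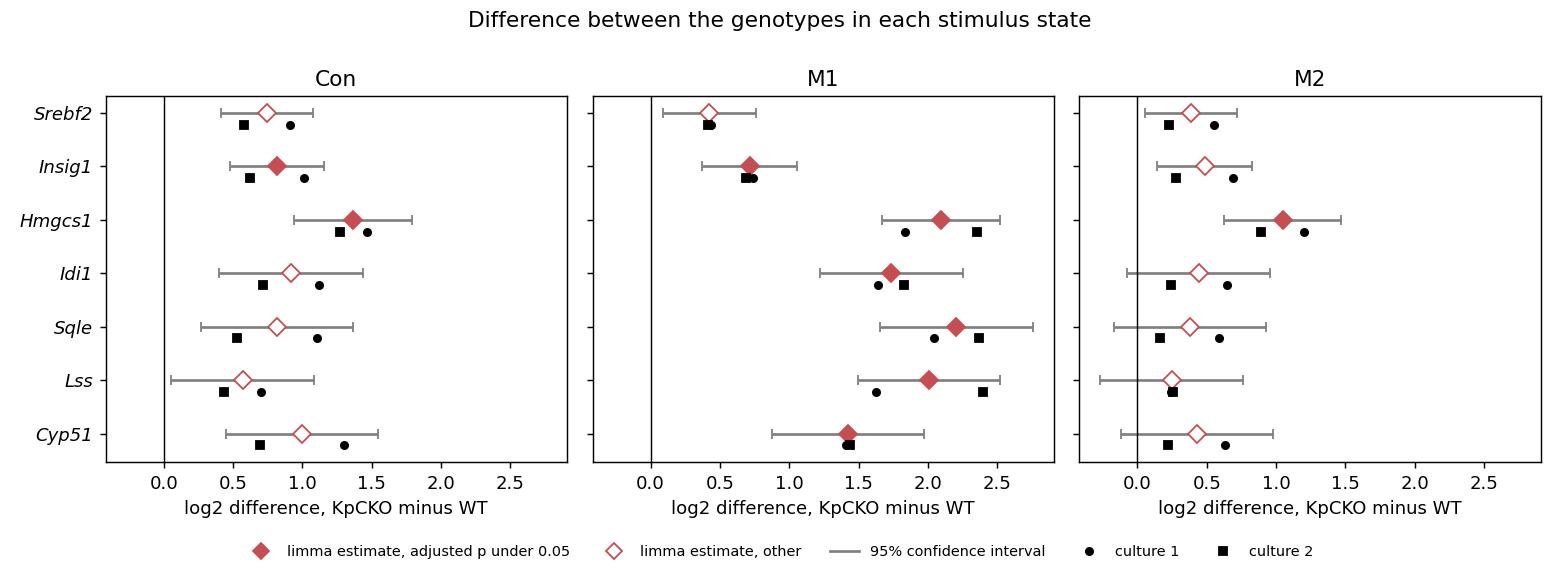
Log2 difference KpCKO minus WT (horizontal axis) of each of the 7 genes (vertical axis) in Con, M1 and M2; diamonds are limma's estimates, filled where the adjusted p was under 0.05, bars the 95% confidence interval, and black circles and squares the difference in culture 1 and culture 2. Every black symbol lies to the right of 0, and 6 of 7 diamonds are filled in M1 against 2 in Con and 1 in M2.

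From Con to M1 more of the genes passed the test in KpCKO than in WT. In KpCKO, 7 of 7 genes rose, by 0.81 to 1.46, where 24.8% of all genes rose, and 5 of 7 passed after quantile normalization and 4 with only the groups compared. In WT, 4 of 7 rose (*Srebf2*, *Insig1*, *Cyp51* and *Idi1*), where 34.5% of all genes did, and 3 did not pass. The median difference of the 7 genes was 1.12 in KpCKO and 0.63 in WT, against 0.029 and 0.13 for all genes. Both of the latter depended on the scaling and were −0.063 and −0.079 after quantile normalization. These counts do not show that the responses differed. The test of the difference in the M1 response passed for 0 of 7 genes, and for 0.0716% of all genes tested, with 4 of 7 genes, and 16.4% of all genes, at an unadjusted p under 0.05. The estimated difference in response was largest for *Lss*, at 1.44 with a 95% confidence interval from 0.71 to 2.17 (adjusted p = 0.142), and *Sqle*, at 1.39 from 0.61 to 2.17 (adjusted p = 0.158), and was −0.32 for *Srebf2*, from −0.79 to 0.15 (adjusted p = 0.454).

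M2 stimulation raised 4 of 7 genes in WT (*Srebf2*, *Sqle*, *Cyp51* and *Insig1*), by 0.62 to 0.99, where 8.62% of all genes rose. In KpCKO it raised 0 of 7, where 5.68% of all genes rose, and 1 of 7 passed at an unadjusted p under 0.05, as did 27.1% of all genes in either direction. *Cyp51* had the largest difference in WT, 0.99 ± 0.23 (1.98-fold, adjusted p = 0.0306), against 0.42 ± 0.23 in KpCKO (adjusted p = 0.299), and *Insig1* the smallest called one, 0.62 ± 0.14 (adjusted p = 0.0309). The median was 0.62 in WT and 0.28 in KpCKO, against −0.0087 and 0.0082 for all genes. The difference in the M2 response passed for 0 of 7 genes, with 0 at an unadjusted p under 0.05 (2.02% of all genes), and for 0.00894% of all genes. It was negative for 7 of 7 genes, from −0.57 to −0.32, and these values share the Con arrays with both responses. The 4 calls in WT rested on single arrays. Without WT Con of culture 1, WT Con of culture 2 or WT M2 of culture 2 none of the 7 genes passed, and without WT M2 of culture 1 *Srebf2* and *Cyp51* did.

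The 7 genes were alike to different degrees in how they ordered the 12 arrays. Over the 21 pairs of genes Pearson's r ranged from 0.38 for *Srebf2* and *Sqle* to 0.968 for *Idi1* and *Cyp51*, with a median of 0.831, and *Sqle* and *Lss* reached 0.964. These values describe arrays that share genotype, stimulus, slide and culture. The 5 genes most like the mean of the 7, compared with 17168 genes that had a signal above background on every array, were AK033165 (r = 0.965), *Fdps* (0.962), CJ042244 (0.962), *Acat2* (0.957) and *Mrpl38* (0.935). *Fdps* and *Acat2* encode enzymes of the same pathway, farnesyl diphosphate synthase and cytosolic acetoacetyl-CoA thiolase. AK033165 and CJ042244 are transcripts that were not matched to a symbol.

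The brightest probe stood for a gene, and 6 of the 7 genes had further probes, 7 in all. In the comparisons of the genotypes all 7 further probes had the same sign as the brightest in Con, M1 and M2. In M1 6 of 7 passed, with differences from 0.48 to 2.14, whereas 1 of 7 passed in Con and 1 of 7 in M2. The further probe of *Insig1* did not pass limma's test in M1 (0.48, adjusted p = 0.0855) or in Con (0.71, adjusted p = 0.0935). That of *Srebf2* passed in M1 (adjusted p = 0.0485). From Con to M1, 7 of the 7 further probes passed in KpCKO and 4 in WT, and 3 passed from Con to M2 in WT, where that of *Insig1* did not (0.53, adjusted p = 0.0677).

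The other enzymes of the pathway were mostly higher in KpCKO than in WT after M1 stimulation. Of 16 further enzymes of cholesterol synthesis, in M1 12 were higher in KpCKO than in WT and 0 were lower, with a median difference of 1.40, where 7.43% of all genes were higher and 8.58% lower. *Pmvk*, *Ggps1*, *Lbr* and *Ebp* did not pass in M1. In Con 1 of the 16 was higher, the squalene synthase *Fdft1* (1.12, adjusted p = 0.0411), where 1.39% of all genes were. The median difference of the 16 in Con was 0.55, with 11 at an unadjusted p under 0.05 (limma) against 14.1% of all genes. In M2 0 passed, where 1.28% of all genes were higher, with 6 at an unadjusted p under 0.05 against 14.3% of all genes.

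In WT, M1 stimulation raised 2 of these 16 enzymes and lowered 6, where 34.5% of all genes rose and 28.7% fell. *Fdps* rose by 0.81 (adjusted p = 0.0115) and the phosphomevalonate kinase *Pmvk* by 1.52 (adjusted p = 0.000339). The enzymes that fell included *Dhcr7*, the 7-dehydrocholesterol reductase of the last step (−3.24, adjusted p = 2.22e-05), and the mevalonate pathway enzymes *Mvd* (−1.44, adjusted p = 0.000849) and *Mvk* (−1.17, adjusted p = 0.000119). In KpCKO, 8 of the 16 rose and 2 fell, *Dhcr7* (−1.76) and *Lbr* (−0.61), where 24.8% of all genes rose and 25.4% fell. *Mvd* differed most between the genotypes in M1, by 2.75 (adjusted p = 0.000965). Its level was −0.68 and −0.83 in WT M1 and 1.72 and 2.27 in KpCKO M1, with no overlap. The difference in the M1 response passed for 0 of the 16 enzymes, with 9 at an unadjusted p under 0.05, against 16.4% of all genes. Apart from *Fdps* and *Acat2*, the enzymes named in this and the previous paragraph were picked after their values were seen.

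**Figure D3:**
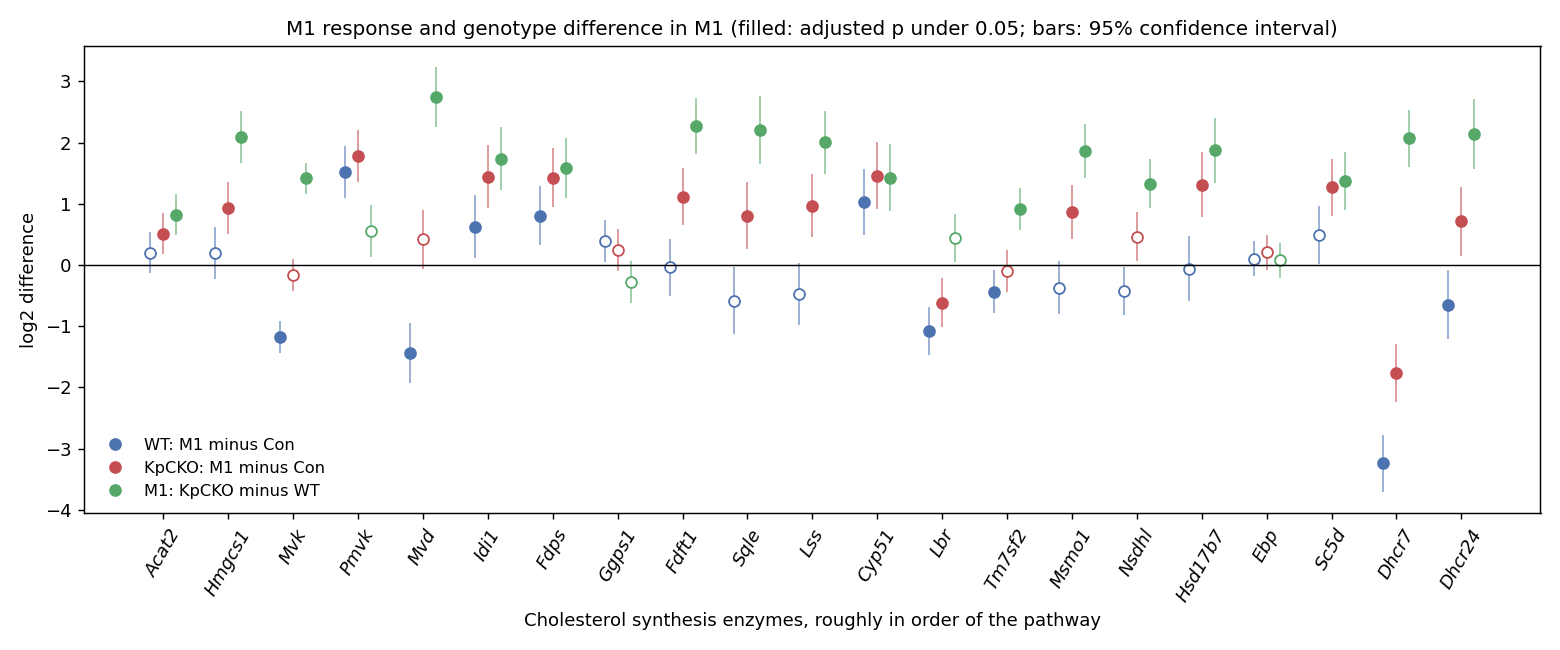
Log2 difference (vertical axis) of 21 cholesterol synthesis enzymes, roughly in pathway order (horizontal axis), for M1 minus Con in WT (blue), M1 minus Con in KpCKO (red) and KpCKO minus WT in M1 (green); filled points had an adjusted p under 0.05 and bars are 95% confidence intervals. In WT 4 enzymes rose and 6 fell with M1, in KpCKO 13 rose and 2 fell, and in M1 17 were higher in KpCKO than in WT.

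Among the other regulators of SREBP, *Scap*, the gene of the SREBP escort, fell by 0.41 from Con to M1 in WT (adjusted p = 0.0156), and in KpCKO the difference was 0.092 (adjusted p = 0.521). *Srebf1*, which encodes the SREBP isoforms that favour fatty acid synthesis, was higher in KpCKO by 0.46 in M1 (adjusted p = 0.0292). *Insig2*, the second Insig gene, rose by 0.63 with M2 in WT (adjusted p = 0.0219). Of the 5 regulators on this list, which also holds the protease genes *Mbtps1* and *Mbtps2*, 0 were higher and 2 lower in WT M1 than in WT Con (*Scap* and *Mbtps1*), where 34.5% of all genes rose and 28.7% fell.

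*Mylip*, which encodes a ubiquitin ligase that degrades lipoprotein receptors, rose with M1 in both genotypes. Of the 11 uptake and transport genes listed, 3 rose and 5 fell with M1 in WT, where 34.5% and 28.7% of all genes did, and 3 rose and 4 fell in KpCKO, where 24.8% and 25.4% did. The level of *Mylip* was 3.83 and 3.61 in WT Con, 4.01 and 3.89 in KpCKO Con, 5.39 and 4.89 in WT M1 and 5.87 and 5.73 in KpCKO M1. With IL-4 it was 2.62 and 2.10 in WT and 3.24 and 2.46 in KpCKO. The KpCKO arrays were above the WT arrays without overlap in Con and M1 and overlapped them in M2. The rise with M1 was 1.42 in WT (adjusted p = 0.00046) and 1.85 in KpCKO (adjusted p = 0.00023), and with M2 *Mylip* fell by 1.36 in WT (adjusted p = 0.00488). In KpCKO the difference with M2 was −1.10, with both M2 arrays below both Con arrays. In M1 *Mylip* was higher in KpCKO by 0.66 (adjusted p = 0.0483). Between the genotypes 6 of the 11 genes were higher in KpCKO M1 and 0 lower, where 7.43% of all genes were higher. None passed in Con, with 3 at an unadjusted p under 0.05 against 14.1% of all genes, and *Lrp1*, the gene of a lipoprotein receptor, alone passed in M2 (0.88, adjusted p = 0.0185), where 1.28% of all genes were higher. *Lipa*, the lysosomal lipase that frees cholesterol from its esters, had the largest difference of this list in M1 (2.24, adjusted p = 0.00838), and *Lipa* and *Lrp1* were picked after their values were seen.

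*Ch25h*, which encodes the enzyme of 25-hydroxycholesterol synthesis, ran the other way between the genotypes. Its level was −1.48 and −1.56 in WT Con, −2.14 and −2.50 in KpCKO Con, 6.29 and 5.93 in WT M1 and 2.64 and 3.58 in KpCKO M1. In M2 it was 0.88 and 1.34 in WT and −0.045 and −0.14 in KpCKO. KpCKO was below WT without overlap in each state. The rise with M1 was 7.63 in WT (adjusted p = 6.42e-06) and 5.43 in KpCKO (adjusted p = 3.5e-05), and in M1 the level in KpCKO fell short of that in WT by a log2 difference of −3.00 (adjusted p = 0.00308). The differences of −0.80 in Con (adjusted p = 0.323) and −1.20 in M2 (adjusted p = 0.148) did not pass, nor did that in the M1 response (−2.20, adjusted p = 0.131). Whether the level of *Ch25h* bears on the other genes was not tested. *Abca1*, which exports cholesterol, fell by 2.63 with M1 in WT (adjusted p = 0.0011) and by 1.26 in KpCKO (adjusted p = 0.0347), and its difference between the genotypes in M1, 1.08, did not pass (adjusted p = 0.108). Of the 7 export and oxysterol genes listed, *Ch25h* was the only one that passed between the genotypes in M1, where 8.58% of all genes were lower.

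**Figure D4:**
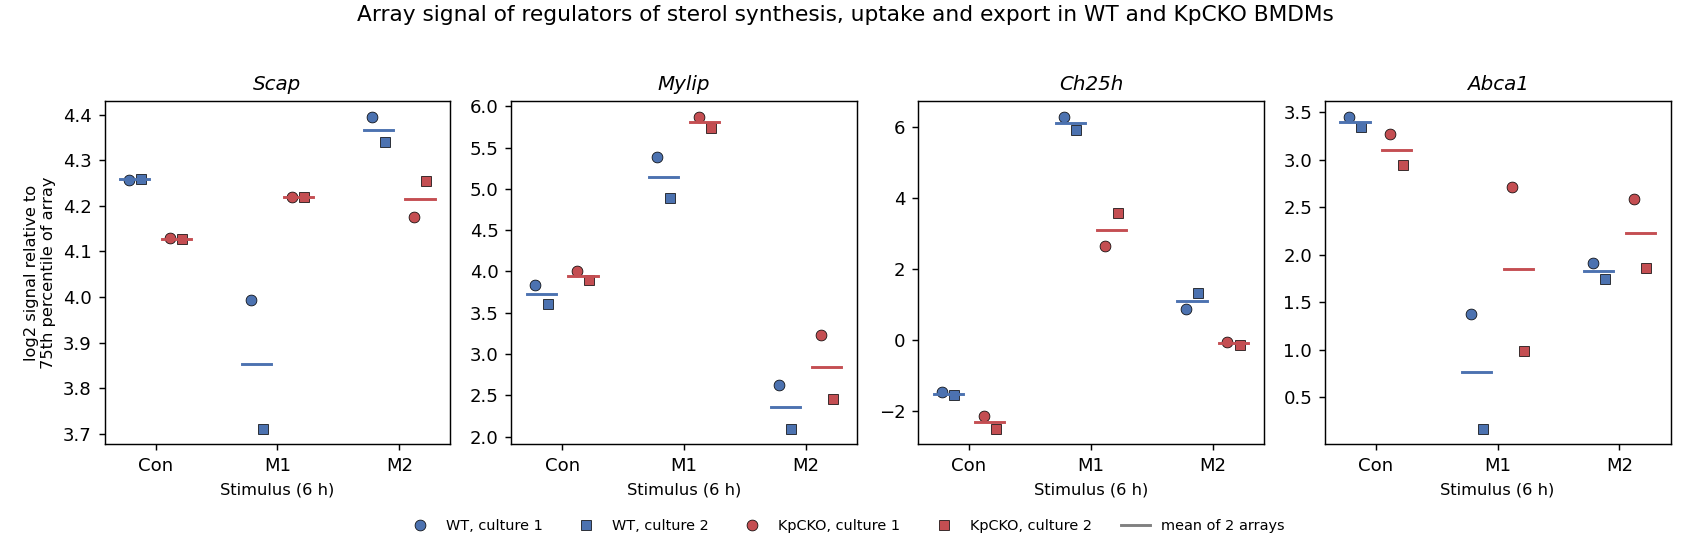
Log2 array signal relative to the 75th percentile of the array (vertical axis, a scale of its own in each panel) of *Scap*, *Mylip*, *Ch25h* and *Abca1* in Con, M1 and M2 (horizontal axis), for WT (blue) and KpCKO (red); circles are culture 1, squares culture 2 and lines the mean of 2 arrays. In M1, KpCKO was above WT for *Scap* and *Mylip* and below WT for *Ch25h*, while the groups overlapped for *Abca1*.

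The stimuli and the genotype gave their usual marker genes on the same arrays. *Il6* rose by 13.2 and *Cxcl10* by 9.28 with M1 in WT, and *Retnla* was among the genes that rose with M2 in both genotypes, as were *Arg1* and *Chil3*. With M1 in KpCKO *Il6* rose by 9.72 and *Cxcl10* by 11.4. The difference in the M1 response passed limma's test for 0 of the 6 stimulus markers listed, and for 0.0716% of all genes. In M1 the log2 difference of *Il6* between KpCKO and WT was −3.21. The Nrf2 target *Nqo1* was higher in KpCKO by 3.23 in Con, 3.50 in M1 and 3.52 in M2.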

How the data were processed

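Per the labels, 12 BMDM samples of total RNA carried Cy3, 1 sample to each 1-colour Agilent array (design on mm9). From scans read with Agilent Feature Extraction 10.7.3.1, the authors deposited 1 table an array with each spot's intensity after background subtraction, not scaled between arrays, the median intensity of spot and local background, and other columns of flags. Their deposited value table holds log2 values, which are these intensities on the log2 scale less the array's 75th percentile, centred on the median of each probe (slopes from 0.999623 to 1.00036 over 40749 probes). The number of arrays limits the precision.

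Outlier spots were left out, spots of a probe averaged on the log2 scale, and each array set relative to its 75th percentile. Of 41174 probes, 26690 were named through RefSeq accessions (18217 symbols) and the others kept their identifier. The brightest probe stood for a gene. Genes had to be well above background on each array of 1 or more groups, which 22367 were, and with limma 3.58.1 (R 4.3.3) a model of 6 groups with culture as a block was fitted to all 12 arrays (5 residual and 1.92 prior degrees of freedom). The pairing by culture comes from the series' description of 1 WT and 1 KpCKO mouse in each culture. Deviations of 22084 genes from their group mean correlated between same-culture arrays at 0.162 to 0.597 (median 0.342, 15 pairs of groups). P-values measure the spread left among the 12 arrays after group means and a shift shared by each culture. Each culture held 1 mouse of each genotype, and arrays of the same mouse were treated as independent when the genotypes were compared. Spread between mice of a genotype is thus poorly measured, from 2 cultures only.

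The members and the gene lists were chosen with earlier results of these data known. The genes named are the 7 members, *Keap1*, *Scap*, *Insig2*, *Srebf1*, *Mylip*, *Ch25h* and *Abca1*, the 5 genes closest to the mean of the members, and up to 3 list genes a comparison by size of the difference. *Elane*, *Ms4a1*, *Mbtps1*, *Mbtps2* and the genes said to be picked after their values were seen are outside this rule. *Cd68* and *Ly6g* were not analysed here, and 3 genes of the lists are not reported here or counted in them. The alternatives were quantile normalization, normexp (offset 50) on the median intensities, the authors' log2 table, no filter on dim probes or a filter on all 12 arrays, the mean of a gene's probes, no culture block or a block by mouse, only the groups compared, trended and robust variances, the methods' t-test, and leaving out each array. The methods' t-test is the unpaired t-test that the paper gives for its assays in general, whereas its array genes were chosen by fold change in both mice. The limma script was tested on simulated data. Python 3.11.15, pandas 2.3.3, numpy 2.4.6, scipy 1.17.1 and matplotlib 3.10.9 were used.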

Additional observations from a re-analysis of the deposited data

Results flagged for a closer look

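The M1 response of *Sqle* ran opposite ways in the genotypes, with a change of −0.49 and −0.68 in the WT cultures and 0.45 and 1.16 in the KpCKO cultures. The difference in response of 1.39 did not pass limma's test (adjusted p = 0.158). *Lss* gave −0.35 and −0.59 in WT and 0.57 and 1.37 in KpCKO, a difference of 1.44 (adjusted p = 0.142). The changes of *Scap* were −0.26 and −0.55 in WT and 0.091 and 0.093 in KpCKO, a difference of 0.50 (adjusted p = 0.220). Put the other way, *Scap* in KpCKO less WT was −0.13 in both cultures of Con, and 0.23 and 0.51 in M1. *Srebf1* changed by −0.095 and −0.12 in WT and by 0.091 and 0.13 in KpCKO, a difference of 0.22 (adjusted p = 0.479). For *Abca1*, KpCKO less WT was −0.18 and −0.41 in Con, 1.35 and 0.82 in M1, and 0.68 and 0.11 in M2. The differences between these, 1.38 for M1 (adjusted p = 0.295) and 0.69 for M2 (adjusted p = 1), did not pass. None of these responses is thus shown to differ between the genotypes or states.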

How the results depend on the processing

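Each group held 2 arrays, which limits every count of calls. Over the values of the 7 genes in 9 comparisons, 938 alternatives kept the direction and the side of the threshold, 120 kept the direction and no longer passed, 13 newly passed and 7 reversed. Most of the 938 belong to values that had not passed as reported and so could not lose a call. The share of the 120 among all alternatives thus understates how often a call was lost.

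With the methods' t-test after adjustment, 1 gene passed for M1 against Con in WT and 0 for M2 in WT, M1 and M2 in KpCKO and the genotypes in Con, M1 and M2. Unadjusted it gave 2 for M1 in WT, 1 for M2 in WT, 2 for M1 in KpCKO and 0 for the genotypes in M2. With only the groups compared, 4 genes passed for M1 in KpCKO and 0 for the genotypes in Con, M1 and M2. With no replicate block 1 gene passed for M2 in WT, 1 for the genotypes in Con and 0 in M2. Normexp gave 1 for M2 in WT and 1 for the genotypes in Con. No filter on dim probes gave 1, 1 and 0 for M2 in WT and the genotypes in Con and M2, and the mean of a gene's probes gave 1 in Con. Quantile normalization, the filter on all 12 arrays and trended and robust variances each gave 3 in Con, with *Srebf2* added. For M2 in KpCKO, 1 gene passed with the filter on all 12 arrays and 1 with trended and robust variances. Leaving out 1 array gave 0 to 2 genes for M2 in WT, 0 to 1 for the genotypes in Con, 4 to 5 in M1 and 0 to 0 in M2.

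The reversed values had not passed the test as reported either. *Hmgcs1* was at −0.29 for M1 in WT after quantile normalization, and for M2 in KpCKO at −0.048 without KpCKO Con of culture 2 and −0.050 by its other probe. *Idi1* was at −0.15 for M2 in KpCKO without KpCKO Con of culture 2. The difference in the M1 response of *Insig1* was 0.058 with normexp and 0.069 without KpCKO Con of culture 1, and that of *Srebf2* was 0.19 by its other probe. Over the leave-one-out fits these ran from −0.048 to 0.32 for *Hmgcs1*, from −0.15 to 0.45 for *Idi1* and from −0.28 to 0.069 for *Insig1*. The cause was not tested.

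The counts over all genes lay between 2934 and 18027 for M1 in WT, 2 and 4722 for M2 in WT, 0 and 11804 for M1 in KpCKO, 0 and 2798 for M2 in KpCKO, 0 and 1618 for the genotypes in Con, 0 and 4355 in M1, 0 and 1740 in M2, 0 and 537 for the difference in the M1 response and 0 and 2 in the M2 response. The t-test was not run for the differences in response, nor the block by mouse for the genotypes.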

Other observations

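Of 10 listed genes of fatty acid synthesis, the other arm of the SREBP program, 9 were higher in KpCKO in M1. Of all genes, 7.43% were higher. The median log2 difference of the 10 was 1.55. Whether SREBP had a part in these differences was not tested. In Con and in M2, 3 of the 10 were higher, *Acss2*, *Me1* and *Scd2* in both, where 1.39% and 1.28% of all genes were. *Acss2*, which makes acetyl-CoA from acetate, differed by 3.46 in Con (limma, adjusted p = 0.00119), 3.36 in M1 (adjusted p = 0.000706) and 2.34 in M2 (adjusted p = 0.00543). *Me1*, the malic enzyme that supplies NADPH, differed by 1.73, 1.97 and 1.59 (adjusted p = 0.00119, 0.000549 and 0.00157). In WT, M1 stimulation lowered 7 of the 10 genes, where 28.7% of all genes fell, among them the desaturase *Fads1* (−2.85, adjusted p = 2.35e-05) and *Fasn*, the fatty acid synthase (−1.21, adjusted p = 0.00101). In KpCKO 3 fell, where 25.4% of all genes did. *Me1*, *Scd2*, *Fads1* and *Fasn* were picked after their values were seen.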
